A study of Mus musculus with 10 samples.

Results

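The 10 genes described here encode the canonical NF-kB subunits p105/p50 (Nfkb1), c-Rel (Rel) and p65 (Rela), the inhibitors that bind them, and a feedback enzyme of the pathway. They were chosen by name, as the rows whose Entrez identifiers map to these symbols, and they are 10 of the 9690 genes in the deposited table. The cells were B cells from spleens of C57BL/6J females, taken without stimulation and labelled knockout or wild type for LSD1, the histone demethylase encoded by Kdm1a. Marginal zone B cells (MZB) were sorted as B220+ CD23- CD21hi CD1d+ and follicular B cells (FoB) as B220+ CD23+ CD21mid CD1d-. Both sorts left out cells with Thy1.1, F4/80, CD11b, CD93 or GL7. There were 2 knockout and 3 wild-type MZB libraries, and 3 knockout and 2 wild-type FoB libraries, each from 50000 cells. The sources used here give neither the driver of the deletion, the deleted exons and the age of the mice nor whether each library came from its own mouse. The p-values therefore measure only how much these libraries vary, which may be technical.

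In a resting cell, NF-kB dimers are held in the cytoplasm by the classical inhibitors IkB-alpha (Nfkbia), IkB-beta (Nfkbib) and IkB-epsilon (Nfkbie). A signal through the B cell receptor, a Toll-like receptor or CD40 activates the IkB kinase, the inhibitors are tagged and degraded, and the freed dimers enter the nucleus, where they switch on genes that include their own inhibitors. The atypical family members IkBNS (Nfkbid), IkB-zeta (Nfkbiz) and Bcl3 act in the nucleus, where they bind mainly p50 and tune transcription up or down. Tnfaip3 encodes a ubiquitin-editing enzyme that shuts the upstream signal off. Mice that lack p50 or IkBNS are known to have few marginal zone B cells.

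Values were mRNA molecules per cell, scaled by gene length. Recovered reads summed to 4161051 to 6711847 per library, and the 10 genes held from 121 reads (Nfkbib) to 2903 reads (Nfkb1) in a library. The summed mRNA per cell was 74815 to 121071 in MZB libraries and 43562 to 56438 in FoB libraries, so that most genes were higher in MZB per cell. Each comparison is therefore given on 2 scales. The first is molecules per cell as deposited. The second is a rescaled value, for which each library was divided by a factor that brings its genes to a common level, so that it shows a gene relative to the other genes. In bulk RNA a lower level in every cell and fewer cells of a type cannot be told apart. Kdm1a checks the labels. Its rescaled values were 3.48 and 3.37 in knockout against 5.63, 5.68 and 5.83 in wild-type MZB, and 3.01, 3.09 and 3.09 in knockout against 7.01 and 6.84 in wild-type FoB. The groups did not overlap in either cell type (limma, log2 change −0.69, adjusted p = 0.000464 in MZB and −1.10, adjusted p = 2.5e-05 in FoB). Per cell the log2 change passed in FoB, at −1.12, and not in MZB, at −0.39 (limma, adjusted p = 4.31e-05 and 0.118), though neither cell type's groups overlapped. The 7 marginal zone marker genes summed to 421.9 to 507.7 molecules per cell in MZB and 44.5 to 61.2 in FoB. The table held 0 of 5 neutrophil, 0 of 5 NK cell, 0 of 6 erythroid and platelet, 1 of 8 T cell, 2 of 9 macrophage, 2 of 7 dendritic cell and 2 of 5 plasma cell markers.

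Several of these genes are themselves known targets of NF-kB, and the promoter letters show where a binding motif stands. RefSeq promoter windows (GRCm38.p6, from 250 bases before to 50 bases after the start) were found for 8 of the 10 genes, with 11 windows in all. The kappaB consensus was searched by name on both strands. It was found in 6 of the 11 windows, at 1 or more starts of 6 of the 8 genes, and in 8.46% of all 32851 windows. The stretches below hold the matches in capitals for the 4 genes whose matches all ended before their first start site. Each stretch lies wholly before the start site. The Rel capitals are 2 overlapping matches, 92 and 91 bases before the start (chr11:23771016-23771096, minus strand). The Nfkbia match begins 29 bases before the start (chr12:55492648-55492711, minus strand). The Nfkbie match begins 106 bases before the start (chr17:45555559-45555638, plus strand). Tnfaip3 has 2 matches, 125 and 12 bases before the start (chr10:19015411-19015570, minus strand).
Rel: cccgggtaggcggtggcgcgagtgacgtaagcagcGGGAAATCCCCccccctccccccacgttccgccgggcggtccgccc
Nfkbia: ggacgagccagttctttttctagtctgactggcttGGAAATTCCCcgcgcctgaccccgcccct
Nfkbie: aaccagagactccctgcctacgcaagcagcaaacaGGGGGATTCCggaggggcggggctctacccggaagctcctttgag
Tnfaip3: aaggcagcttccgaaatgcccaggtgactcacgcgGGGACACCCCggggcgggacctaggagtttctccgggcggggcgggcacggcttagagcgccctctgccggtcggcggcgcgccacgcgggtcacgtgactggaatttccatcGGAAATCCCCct
A match is a run of letters and not a measured binding site. The Nfkbid matches stood at the second of its 3 starts, the Bcl3 match began 2 bases after its start, and the windows of Rela and Nfkbib held 0 matches.

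Among the activating subunits, Nfkb1 (chr3:135584655-135691969, minus strand) had the highest mean level per cell in each MZB group. It measured 17.8, 23.9 and 20.6 molecules per cell in wild-type MZB and 24.8 and 33.4 in knockout MZB. It measured 17.9 and 13.6 in wild-type FoB and 14.5, 16.1 and 12.6 in knockout FoB. Knockout MZB lay above every other library, while wild-type MZB and wild-type FoB met at 17.8 and 17.9. Rel (chr11:23736847-23770969, minus strand), the subunit best known from B cell receptor responses, measured 16.3, 21.3 and 18.0 in wild-type MZB and 21.5 and 23.7 in knockout MZB. It measured 11.4 and 9.18 in wild-type FoB and 11.1, 11.9 and 11.8 in knockout FoB. All MZB libraries stood above all FoB libraries for Rel, and the FoB groups overlapped. Rela (chr19:5637442-5648134, plus strand), which carries a strong activation domain, measured 7.69, 9.64 and 9.66 in wild-type MZB and 10.6 and 14.6 in knockout MZB. It measured 9.21 and 7.60 in wild-type FoB and 7.92, 8.33 and 5.99 in knockout FoB, so that wild-type MZB and both FoB groups shared a range.

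The classical inhibitors differed from each other in their order of groups. Nfkbia (chr12:55489409-55492647, minus strand) measured 13.3, 17.3 and 15.8 molecules per cell in wild-type MZB and 21.6 and 26.8 in knockout MZB. It measured 19.8 and 15.8 in wild-type FoB and 16.7, 21.3 and 17.1 in knockout FoB. It was the only one of the 10 genes whose wild-type MZB mean was the lowest of the 4 group means. Nfkbie (chr17:45555700-45563169, plus strand) measured 15.7, 18.7 and 18.5 in wild-type MZB and 21.5 and 28.1 in knockout MZB, against 10.2 and 8.83 in wild-type FoB and 8.41, 9.44 and 6.93 in knockout FoB. Every MZB library stood above every FoB library for Nfkbie. Nfkbib (chr7:28758251-28766644, minus strand) had the lowest level of the 3 classical inhibitors, with 2.63, 3.94 and 3.39 in wild-type MZB, 3.86 and 5.05 in knockout MZB, 3.46 and 2.44 in wild-type FoB, and 2.16, 2.93 and 1.93 in knockout FoB. Neighbouring groups overlapped throughout for Nfkbib. Its exons overlap those of Sirt2 and Ccer2 on the opposite strand, and the use of strand in counting is not stated.

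The nuclear inhibitors separated the cell types except for Bcl3. Nfkbid (chr7:30421731-30428749, plus strand) measured 14.3, 15.7 and 17.1 in wild-type MZB and 17.7 and 22.4 in knockout MZB, against 8.25 and 6.53 in wild-type FoB and 6.55, 7.59 and 6.08 in knockout FoB. Nfkbiz (chr16:55811375-55838954, minus strand) measured 6.17, 6.74 and 7.01 in wild-type MZB and 7.22 and 7.33 in knockout MZB, against 2.96 and 2.54 in wild-type FoB and 2.19, 2.12 and 2.29 in knockout FoB. For both genes all MZB libraries were above all FoB libraries. Bcl3 (chr7:19808462-19822824, minus strand) measured 4.60, 6.34 and 6.51 in wild-type MZB, 7.58 and 10.1 in knockout MZB, 6.25 and 5.51 in wild-type FoB, and 5.45, 6.63 and 4.63 in knockout FoB. Only knockout MZB stood apart for Bcl3, and its exons overlap an antisense gene, Gm16175. Tnfaip3 (chr10:19000910-19015410, minus strand), the feedback enzyme, measured 2.73, 3.81 and 3.44 in wild-type MZB, 4.62 and 6.35 in knockout MZB, 3.19 and 2.41 in wild-type FoB, and 2.80, 2.87 and 2.52 in knockout FoB. Knockout MZB was above all other libraries for Tnfaip3, and the other 3 groups lay between 2.41 and 3.81.

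**Figure D1:**
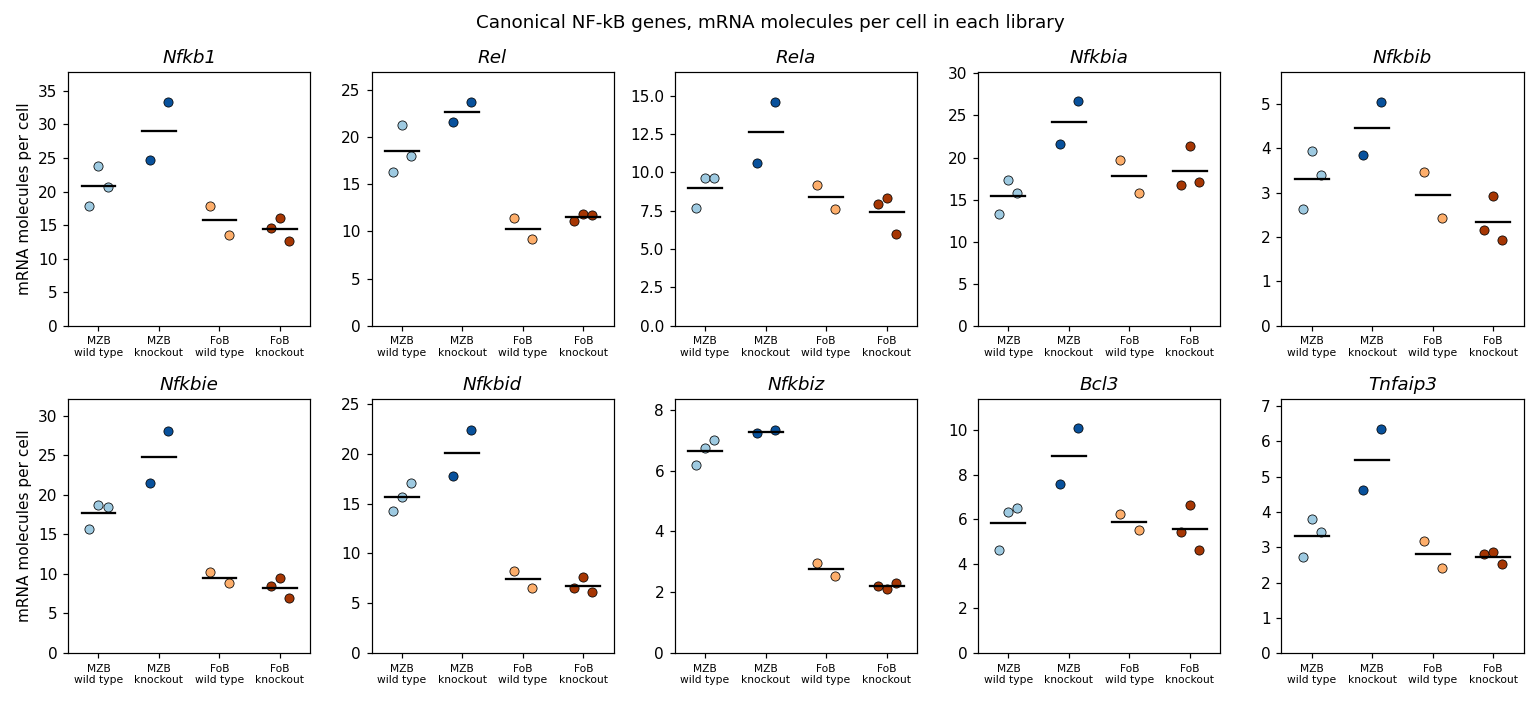
mRNA molecules per cell (vertical axis, from 0) of the 10 genes in each library, by cell type and LSD1 status; points are libraries and bars are group means. Rel, Nfkbie, Nfkbid and Nfkbiz are higher in all MZB than in all FoB libraries, and knockout MZB libraries are highest for 9 of the genes, with the exception of Nfkbib.

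Wild-type MZB and FoB were compared to see how the pathway differs between the resting cell types. Per cell, Rel, Nfkbie, Nfkbid and Nfkbiz were higher in MZB, and 0 of the 10 genes were lower. Nfkbiz had a mean of 6.64 ± 0.43 (SD, n = 3) in MZB against 2.75 ± 0.30 (SD, n = 2) in FoB, a log2 difference of 1.19 ± 0.19 (SE; limma, adjusted p = 3.42e-08). The log2 differences of the others were 1.06 for Nfkbid, 0.87 for Nfkbie and 0.83 for Rel (limma, adjusted p = 1.72e-06, 6.88e-05 and 0.000125). These 4 of 10 stand beside 84.2% of all genes called higher in MZB. The 10 genes had a median log2 difference of 0.31, against 0.78 for all genes. In 4 of the 10 genes the groups did not overlap, with MZB higher, as in 84.5% of all genes. The share of the canonical genes raised per cell was thus below that of the table.

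Relative to the other genes, 6 of the 10 were lower in MZB than in FoB and 1 was higher, where 25.1% of all genes were lower and 24.9% higher. The 6 were Nfkb1, Rela, Nfkbia, Nfkbib, Bcl3 and Tnfaip3. Nfkbia had rescaled values of 11.8, 11.7 and 11.6 in wild-type MZB against 24.8 and 24.9 in wild-type FoB. The replicates lay close together and far from the other group, with a log2 difference of −1.06 ± 0.07 (SE; limma, adjusted p = 4.79e-07). Bcl3 had rescaled values of 4.07, 4.31 and 4.80 against 7.84 and 8.69, with no overlap and a log2 difference of −0.87 ± 0.10 (SE; limma, adjusted p = 3.34e-05). Rela had values of 6.81, 6.55 and 7.12 against 11.6 and 12.0, with a log2 difference of −0.76 ± 0.10 (SE; limma, adjusted p = 8.05e-05). All 3 genes were lower in every wild-type MZB library. Nfkbib, Tnfaip3 and Nfkb1 fell by 0.65, 0.58 and 0.47 on the log2 scale (limma, adjusted p = 0.00052, 0.000301 and 0.000437).

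Nfkbiz was the member that was higher in MZB on both scales. Its rescaled values were 5.46, 4.58 and 5.17 in wild-type MZB against 3.71 and 4.0 in wild-type FoB, with a log2 difference of 0.37 (limma, adjusted p = 0.0182). Leaving out wild-type MZB library 1 or wild-type FoB library 1 ended that call (limma, adjusted p = 0.0645 and 0.119). Rescaled Nfkbid had a log2 difference of 0.20 (limma, adjusted p = 0.0589), which passed when wild-type MZB library 2 was left out (limma, adjusted p = 0.00972). Rel and Nfkbie, called higher per cell, had rescaled differences of −0.03 and 0.01, with 95% intervals from −0.21 to 0.15 and from −0.18 to 0.19. Over the rescaled values 6 genes were lower and 2 higher with no overlap between the groups, where 34.9% and 35.2% of all genes were. The 10 genes had a median rescaled difference of −0.53, against 0.00 for all genes.

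**Figure D2:**
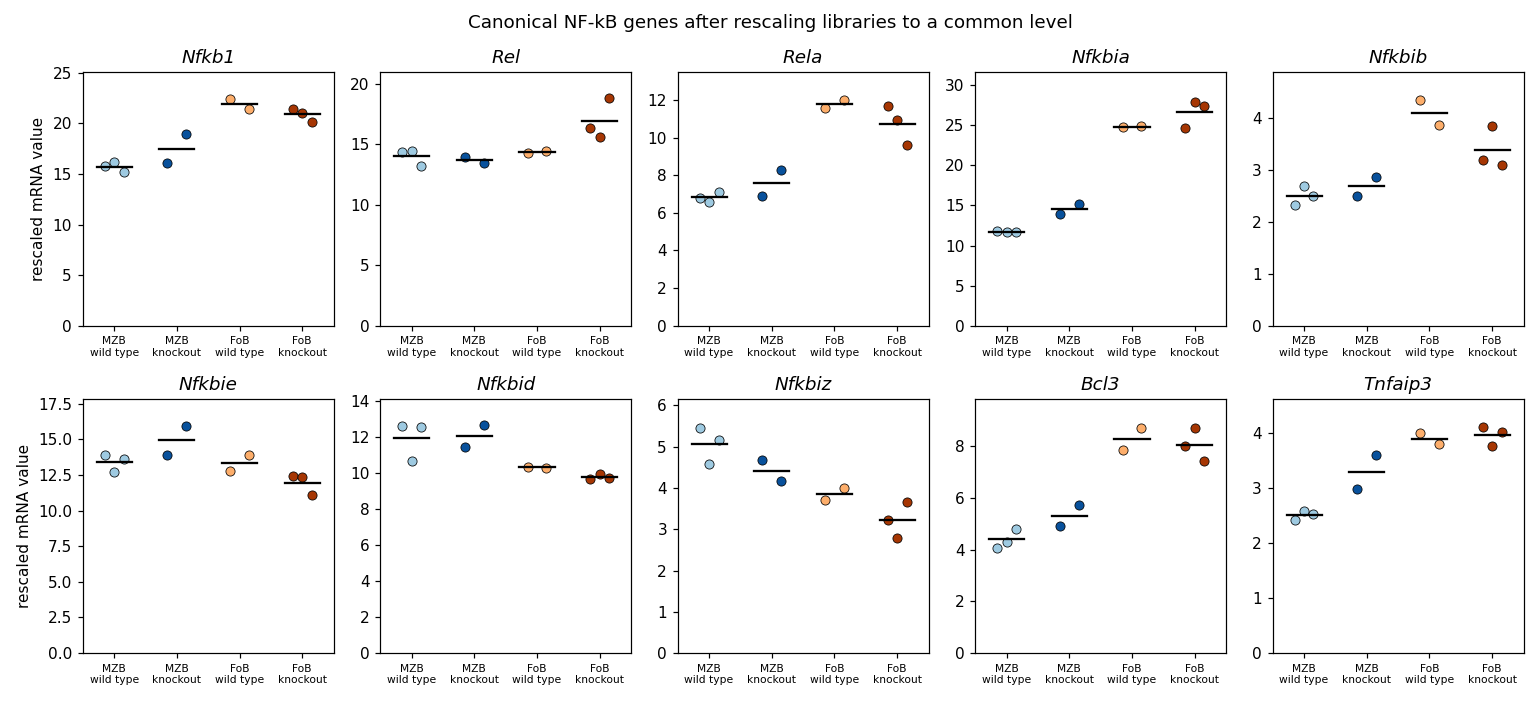
Rescaled mRNA values (vertical axis, from 0) of the 10 genes in each library, by cell type and LSD1 status; points are libraries and bars are group means. Nfkbia, Bcl3, Rela, Nfkbib, Nfkb1 and Tnfaip3 are lower in all MZB than in all FoB libraries, and Nfkbiz and Nfkbid are higher.

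The knockout MZB and FoB libraries, which are other libraries than the wild-type ones, were compared in the same way. Per cell, 9 of the 10 genes were higher in knockout MZB, beside 97.3% of all genes, and the groups did not overlap in 10 of 10, beside 97.5%. The remaining gene, Nfkbia, had a log2 difference of 0.39 (limma, adjusted p = 0.057). The largest per-cell differences among the 10 were those of Nfkbiz, Nfkbie and Nfkbid, at 1.60, 1.55 and 1.53 (limma, adjusted p = 1.74e-12, 5.69e-11 and 6e-11). The calls of Rela and Bcl3 ended without knockout MZB library 2 (limma, adjusted p = 0.0507 and 0.0918).

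After rescaling, 6 of the 10 genes were lower and 3 higher in knockout MZB than in knockout FoB, beside 17.1% and 18.1% of all genes. Nfkbia had rescaled values of 13.97 and 15.2 against 24.6, 27.96 and 27.4, a log2 difference of −0.86 ± 0.07 (SE; limma, adjusted p = 4.12e-06). Bcl3, Rela, Rel, Nfkb1 and Tnfaip3 fell by 0.57, 0.48, 0.29, 0.26 and 0.25 (limma, adjusted p = 0.000967, 0.00255, 0.0169, 0.0224 and 0.0445). Nfkbiz, Nfkbie and Nfkbid were higher, by 0.42, 0.31 and 0.29 (limma, adjusted p = 0.0124, 0.0128 and 0.0158). Nfkbib had a difference of −0.30 (limma, adjusted p = 0.0519). The groups did not overlap in 7 genes that were lower and 3 that were higher, beside 28.5% and 27.8% of all genes. The count of calls was 5 without knockout MZB library 1, which ended those of Nfkb1, Rel, Nfkbiz and Tnfaip3, and 6 without knockout MZB library 2, which ended those of Rel, Nfkbie and Nfkbid. The Nfkb1 call also ended without knockout FoB library 1 (limma, adjusted p = 0.0537). The Tnfaip3 call also ended without each of 7 further libraries, with an adjusted p of 0.0568 to 0.0978 in limma.

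**Figure D3:**
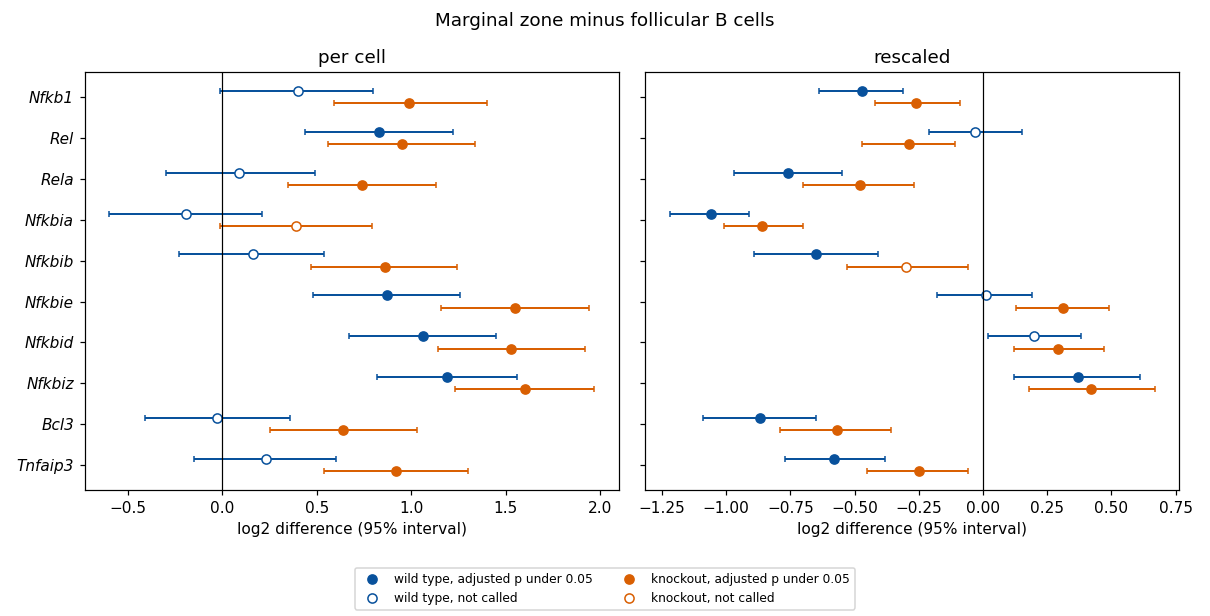
Log2 difference between MZB and FoB (horizontal axis, with 95% intervals) for the 10 genes in wild-type and knockout cells, per cell on the left and rescaled on the right; filled points passed the limma threshold. Nfkbiz is above 0 on both scales in both genotypes, whereas Nfkbia, Bcl3, Rela, Nfkb1 and Tnfaip3 are below 0 in both genotypes after rescaling.

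Ratios within a library need no scaling between libraries and show the same genes against each other. The ratio of Nfkbie to Nfkbia was 1.18, 1.08 and 1.17 in wild-type MZB, 0.995 and 1.05 in knockout MZB, 0.516 and 0.560 in wild-type FoB, and 0.503, 0.443 and 0.406 in knockout FoB. The ratio was higher in every MZB library than in every FoB library. How far a ratio lies from 1 rests on the conversion of reads to molecules for each gene, which is not stated, whereas the order of libraries does not. Nfkbia made up 41.9% to 46.0% of the classical inhibitor transcripts in MZB libraries and 58.3% to 65.9% in FoB libraries. The ratio of Nfkbid to Bcl3 was 2.22 to 3.10 in MZB and 1.14 to 1.32 in FoB libraries, with no overlap. The ratio of Rel to Rela was 2.11, 2.21 and 1.86 in wild-type MZB, against 1.23 and 1.21 in wild-type FoB. Knockout cells lay closer together, at 2.02 and 1.62 in MZB and 1.40, 1.43 and 1.96 in FoB, and these ranges overlapped. For 1 molecule of Rel, wild-type MZB held 0.820, 0.811 and 0.878 of Nfkbia, knockout MZB 1.0 and 1.13, wild-type FoB 1.74 and 1.72, and knockout FoB 1.51, 1.79 and 1.45. These ratios follow from the levels above and are given without a test.

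**Figure D4:**
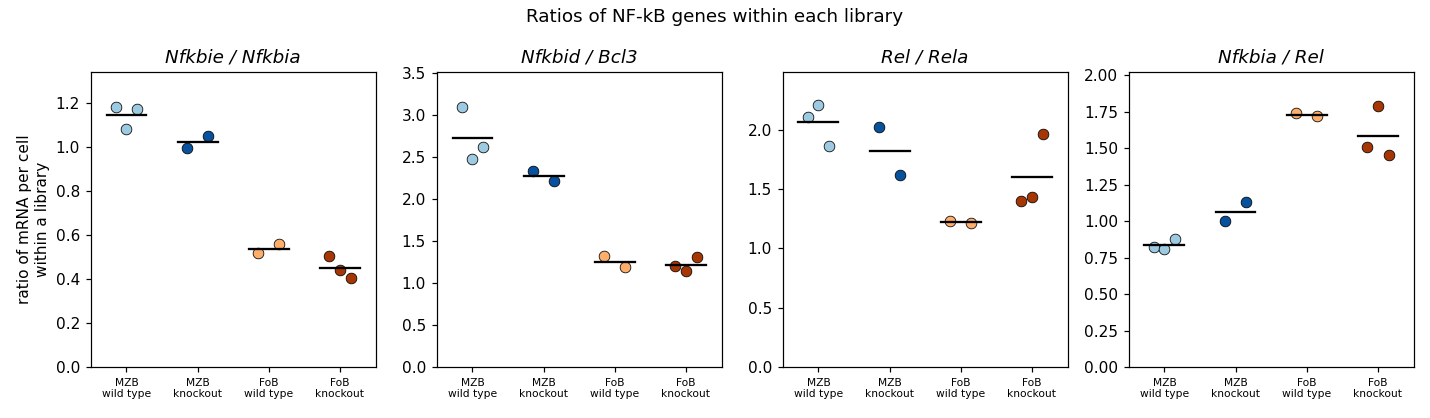
Ratios of transcripts of 2 genes within each library (vertical axis, from 0), by cell type and LSD1 status; points are libraries and bars are group means. Nfkbie to Nfkbia and Nfkbid to Bcl3 are higher in all MZB libraries, and Nfkbia to Rel is higher in all FoB libraries.

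Knockout and wild-type MZB were compared to see how transcripts of the pathway differ with LSD1 status. Rescaled Kdm1a in knockout MZB was 0.6 times its wild-type mean, so its transcript was reduced and not absent. Per cell, Tnfaip3, Nfkbia and Bcl3 were higher in knockout MZB and 0 of the 10 genes were lower. Tnfaip3 had a mean of 5.49 ± 1.22 (SD, n = 2) in knockout against 3.33 ± 0.55 (SD, n = 3) in wild type, 1.65 times as much, with a log2 change of 0.67 ± 0.19 (SE; limma, adjusted p = 0.0123). Nfkbia had a mean of 24.2 ± 3.68 (SD, n = 2) against 15.5 ± 1.99 (SD, n = 3), with a log2 change of 0.63 ± 0.20 (SE; limma, adjusted p = 0.0258). Bcl3 had a mean of 8.83 ± 1.76 (SD, n = 2) against 5.82 ± 1.06 (SD, n = 3), with a log2 change of 0.58 ± 0.20 (SE; limma, adjusted p = 0.0355). These 3 of 10 stand beside 13.3% of all genes called higher, or 1288 genes. That count moved with single libraries. It was 240 when knockout MZB library 2 was left out, and in wild-type MZB it was 426 when library 1 was left out and 2725 when library 2 was. In 9 of the 10 genes, all but Nfkbib, both knockout libraries were above all wild-type libraries, as in 56.9% of all genes. The median log2 change was 0.47 for the 10 genes and 0.32 for all genes.

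The remaining 7 did not pass per cell. Nfkbie, Rela and Nfkb1 had log2 changes of 0.48, 0.47 and 0.47 (limma, adjusted p = 0.08, 0.0831 and 0.0872). Nfkbib, Nfkbid, Rel and Nfkbiz had log2 changes of 0.40, 0.34, 0.29 and 0.13 (limma, adjusted p = 0.119, 0.171, 0.235 and 0.577). All 3 calls rested on single libraries. Without knockout MZB library 2, which had the largest summed mRNA, or without wild-type MZB library 1, which had the smallest in its group, 0 genes passed, and the adjusted p in limma was 0.51 and 0.0932 for Tnfaip3, 0.52 and 0.121 for Nfkbia, and 0.597 and 0.213 for Bcl3. Leaving out wild-type MZB library 3 also ended the Nfkbia call (limma, adjusted p = 0.0637), and 6 genes passed without wild-type MZB library 2.

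After rescaling, Nfkbia and Tnfaip3 remained higher in knockout MZB. Nfkbia had values of 13.97 and 15.2 in knockout against 11.8, 11.7 and 11.6 in wild type, a log2 change of 0.31 ± 0.07 (SE; limma, adjusted p = 0.0322). Tnfaip3 had values of 2.99 and 3.61 against 2.42, 2.59 and 2.53, a log2 change of 0.35 ± 0.09 (SE; limma, adjusted p = 0.0446). Neither gene's groups overlapped, and both stayed below the lowest FoB values of 24.6 and 3.77. Bcl3 had values of 4.91 and 5.72 against 4.07, 4.31 and 4.80, with no overlap and a log2 change of 0.26 (limma, adjusted p = 0.148). The 2 calls of 10 stand beside 3.36% of all genes called higher, and the 3 genes without overlap beside 24.3%. Rescaled log2 changes of the other 7 genes ran from −0.18 for Nfkbiz to 0.15 for Nfkb1 and Nfkbie, and the median of the 10 was 0.14 against 0.02 for all genes. Without any 1 of knockout MZB library 2, wild-type MZB libraries 1, 2 and 3, or wild-type FoB libraries 1 and 2, 0 genes passed, with an adjusted p in limma of 0.0559 to 0.295 for Nfkbia and 0.0673 to 0.378 for Tnfaip3. Without knockout MZB library 1, Tnfaip3 alone passed (limma, adjusted p = 0.0493).

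Markers of other cells moved with this comparison. The 6 follicular marker genes summed to rescaled values of 137.9 to 145.3 in knockout MZB, 107.5 to 119.7 in wild-type MZB and 352.7 to 372.9 in FoB. The 7 marginal zone markers summed to 287.9 to 299.6 in knockout and 341.8 to 374.2 in wild-type MZB. The 2 macrophage markers in the table, Cd68 and Ly6c2, summed to 4.02 to 4.89 and 1.53 to 3.0, the 2 dendritic cell markers, Flt3 and Cst3, to 12.7 to 15 and 9.11 to 9.47, and the T cell marker Lck to 4.59 to 4.79 and 2.70 to 3.36. The rescaled sum of the 2 plasma cell markers, Xbp1 and Irf4, was lower in knockout MZB, at 25 to 25.5 against 26.2 to 27.1. Of these 2 genes, 0 were called between knockout and wild-type MZB on either scale. Their median log2 change was −0.04 rescaled and 0.29 per cell. The 13 immediate early genes, which respond quickly to stimulation, summed to 92.6 to 93.2 and 82.1 to 89.5. The macrophage sum was also higher in knockout FoB, at 4.25 to 6.14 against 1.61 to 2.3 in wild-type FoB. So was the dendritic cell sum, at 16.5 to 20.3 against 15.8 to 15.9. The Lck and plasma cell values overlapped between the FoB groups. The part of each of these in the levels of Nfkbia and Tnfaip3 was not tested.

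**Figure D5:**
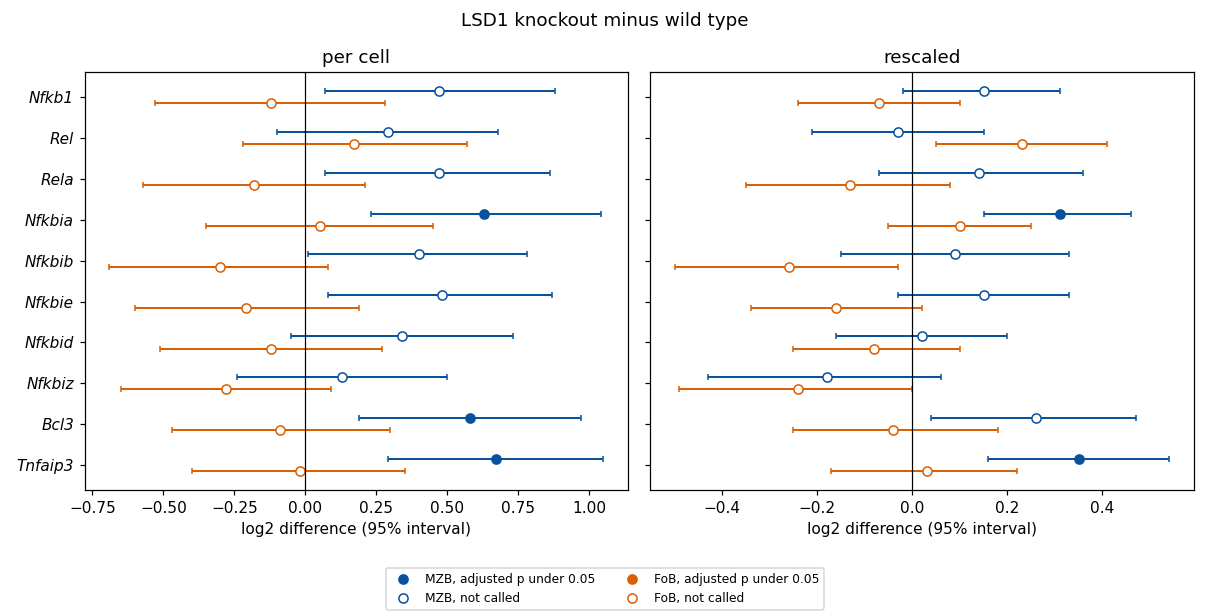
Log2 change from wild type to LSD1 knockout (horizontal axis, with 95% intervals) of the 10 genes in MZB and FoB, per cell on the left and rescaled on the right; filled points passed the limma threshold. Nfkbia and Tnfaip3 in MZB passed on both scales, Bcl3 in MZB passed per cell, and 0 genes passed in FoB.

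In FoB, 0 of the 10 genes passed between knockout and wild type on either scale, beside 0.712% of all genes per cell and 0.588% after rescaling. At an unadjusted p under 0.05 limma counted 0 of them per cell and 2 after rescaling. limma voom on recovered reads called 0. Rel had rescaled values of 16.3, 15.6 and 18.8 in knockout against 14.3 and 14.5 in wild type. All knockout libraries were higher, but the log2 change of 0.23 ± 0.08 (SE) did not pass (limma, adjusted p = 0.266). Nfkbib had a rescaled change of −0.26 (limma, adjusted p = 0.307). For Nfkbia and Tnfaip3, higher in knockout MZB, the rescaled FoB changes were 0.10 and 0.03, with 95% intervals from −0.05 to 0.25 and from −0.17 to 0.22. In rescaled values 1 gene was higher and 5 were lower without overlap, beside 14.9% and 16.3% of all genes. Per cell, only Nfkbiz had groups without overlap, with knockout lower, beside 6.8% of all genes. The median change of the 10 was −0.12 per cell and −0.07 rescaled, against −0.05 and −0.01 for all genes.

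The difference between the knockout effects in MZB and FoB was tested by itself, and 0 of the 10 genes passed, beside 2.34% of all genes per cell and 0.31% after rescaling. At an unadjusted p under 0.05 limma counted 7 of them per cell and 4 after rescaling. The difference (MZB minus FoB) for Tnfaip3 was 0.69 per cell, with a 95% interval from 0.16 to 1.23 (limma, adjusted p = 0.117), and 0.33 after rescaling, from 0.05 to 0.60 (limma, adjusted p = 0.161). For Nfkbia it was 0.59, from 0.02 to 1.15 (limma, adjusted p = 0.171), and 0.21, from −0.01 to 0.42 (limma, adjusted p = 0.233). Nfkbia and Tnfaip3 were thus called in MZB and not in FoB without a called difference between the cell types. Kdm1a itself fell less in MZB than in FoB, with a rescaled difference of 0.41 (limma, adjusted p = 0.0721). On recovered reads that difference was 0.44 (limma voom, adjusted p = 0.0402). Rel had the lowest rescaled difference of the 10, at −0.26 (limma, adjusted p = 0.216), with changes of −0.03 in MZB and 0.23 in FoB. Nfkbib passed per cell without wild-type MZB library 2 or knockout FoB library 2 (limma, adjusted p = 0.045 and 0.0466).

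The relatives of the non-canonical arm, Nfkb2 (p100/p52) and Relb, had rescaled levels ordered like Nfkb1 and Rela. Nfkb2 had rescaled values of 11.4, 11.8 and 12.6 in wild-type MZB against 20.8 and 20.9 in wild-type FoB, a log2 difference of −0.79 (limma, adjusted p = 3.07e-05). Relb had values of 3.88, 3.83 and 3.94 against 5.85 and 5.91, a log2 difference of −0.56 (limma, adjusted p = 0.000509). Both were lower in every wild-type MZB library, while their per-cell differences of 0.07 and 0.27 did not pass (limma, adjusted p = 0.726 and 0.181). Neither passed between knockout and wild type in either cell type.

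Of 24 upstream kinases and adaptors, 5 were higher and 8 lower in wild-type MZB than in FoB after rescaling, beside 24.9% and 25.1% of all genes. Per cell 20 of the 24 were higher and 0 lower, which is close to the 84.2% of all genes called higher. Malt1, the paracaspase that relays B cell receptor signals, had a rescaled mean of 16.3 ± 0.696 (SD, n = 3) in wild-type MZB and 8.93 ± 0.183 (SD, n = 2) in FoB, a log2 difference of 0.85 (limma, adjusted p = 5.34e-06). In knockout MZB its mean was 11.7 ± 0.270 (SD, n = 2). It was the only gene of the list called lower there after rescaling, with a log2 change of −0.47 (limma, adjusted p = 0.00618). Per cell, Malt1 had a change of −0.15 (limma, adjusted p = 0.541). The kinase Ikbke was higher in wild-type MZB, by 1.5 rescaled (limma, adjusted p = 6.86e-07), as was Chuk, the alpha kinase of the IkB kinase complex, by 0.59 (limma, adjusted p = 0.000768). Genes were named by smallest p, which here picked only higher ones, so the 8 lower genes are not named. Rnf31, of the linear ubiquitin ligase, was the only gene of the list called higher in knockout MZB per cell, by 0.61 (limma, adjusted p = 0.0255), and its rescaled change was 0.29 (limma, adjusted p = 0.0759). In FoB 0 of the 24 passed on either scale.

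Among 14 other negative regulators, 5 were higher and 5 lower in wild-type MZB after rescaling, beside 24.9% and 25.1% of all genes, and 9 were higher and 0 lower per cell, beside 84.2%. Tank, an adaptor that restrains the pathway, was higher in wild-type MZB by 0.72 (limma, adjusted p = 0.000117) and fell by 0.40 in knockout MZB (limma, adjusted p = 0.0384), both rescaled. Per cell its knockout change was −0.09 (limma, adjusted p = 0.714). The smallest p picked only higher genes in this list too, so the 5 genes lower in wild-type MZB are not named. Tnip1, a partner of the Tnfaip3 product, was higher in knockout MZB per cell, by 0.54 (limma, adjusted p = 0.044), and by 0.22 after rescaling, which did not pass (limma, adjusted p = 0.117). Of the 7 genes in the table for the ligase that tags the inhibitors for degradation, 1 was higher and 3 lower in wild-type MZB after rescaling, and all 7 were higher per cell. In knockout MZB only Btrc, its substrate receptor, passed per cell, by 0.51 (limma, adjusted p = 0.0478), and 0 passed after rescaling. In FoB 0 genes of both lists passed.

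Of 26 genes listed as NF-kB targets in B cells, 13 were higher and 7 lower in wild-type MZB than in FoB after rescaling, beside 24.9% and 25.1% of all genes. In the knockout cells 15 were higher and 7 lower, beside 18.1% and 17.1%. The count of lower genes in wild type was thus close to that of the table. Their median rescaled difference was 0.31 in wild type, against −0.53 for the 10 canonical genes. The costimulatory ligands Cd80 and Cd86 were higher by 1.64 and 1.45, the signalling adaptor Traf1 by 1.34, and the growth regulator Myc by 1.04 (rescaled; limma, adjusted p = 2.75e-06, 5.28e-08, 9.03e-07 and 2.62e-06). The 7 lower targets were named after their values were seen, since the smallest p on either scale picked only higher genes here. Ccr7, Il4i1, Cd83 and Ltb fell by 1.48, 1.08, 1.03 and 0.93 (rescaled; limma, adjusted p = 1.05e-06, 1.58e-06, 1.06e-05 and 3.46e-06), and Cflar by 0.31 (limma, adjusted p = 0.0167). The others were Nfkb2 and Relb, given above, and Ccr7, a homing receptor, is also among the follicular markers. Per cell, only Ccr7 of the 7 was lower, by a log2 difference of −0.62, and Cflar was higher by 0.50 (limma, adjusted p = 0.00354 and 0.0117). In knockout MZB 10 of the 26 were higher per cell and 2 after rescaling, with 0 lower, beside 13.3% and 3.36% of all genes called higher. Ebi3, a subunit of interleukin cytokines, passed on both scales, with a mean of 10.7 ± 1.41 (SD, n = 2) molecules per cell against 5.0 ± 0.675 (SD, n = 3) in wild type, and log2 changes of 1.05 per cell and 0.72 rescaled (limma, adjusted p = 2.22e-05 and 0.00951). Tnf and Ccnd2, for a cytokine and a cyclin, were higher per cell by 0.83 and 0.78 (limma, adjusted p = 0.00142 and 0.00399), and their rescaled changes of 0.51 and 0.46 did not pass (limma, adjusted p = 0.0563 and 0.0595). In FoB the only call was Cd86, higher by 0.37 after rescaling (limma, adjusted p = 0.0463).

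The 13 immediate early genes of the table included 11 that were lower in wild-type MZB than in FoB after rescaling and 0 that were higher, beside 25.1% and 24.9% of all genes. Their summed rescaled level was 82.1 to 89.5 in wild-type MZB and 138.1 in both wild-type FoB libraries, and 137.6 to 143.4 in knockout FoB. Jund and Ier2 were higher in knockout MZB by 0.71 and 0.65 after rescaling (limma, adjusted p = 0.00194 and 0.00458), and 8 of the 13 passed per cell, beside 13.3% of all genes called higher. The part of this group in the pattern of the canonical genes was not tested.

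Across the 10 libraries, rescaled log2 values of Nfkb1, Rela, Nfkbia, Nfkbib, Bcl3 and Tnfaip3 followed one another, with Pearson correlations of 0.80 to 0.97 between pairs. Nfkbid correlated with Nfkbiz at 0.80 and with Nfkbie at 0.78, and each of Nfkbid and Nfkbiz had negative values with all of the former genes. The 10 libraries fall into 2 cell types, and every pair of genes shares that split and the rescaling, so the values are only a description. Among 5327 other genes, each averaging 3 or more molecules per cell, the pattern most like that of Nfkbia was that of Tsc22d3 (r = 0.997), followed by Cnn3 and Rassf2 (0.995 and 0.994). Stat3 was closest to Nfkb1 (0.995), Tbc1d20 to Rela (0.994), Il2rg to Bcl3 (0.992), Babam1 to Nfkbib (0.985) and Lrrc8c to Tnfaip3 (0.982). Rfx7 was closest to Rel (0.977), 4833420G17Rik to Nfkbiz (0.987), H2-T10 to Nfkbid (0.973) and H2ax to Nfkbie (0.933), the lowest of these values.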

How the data were processed

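Poly(A) RNA of 50000 sorted cells per sample was made into libraries with a stranded mRNA kit, per the labels' protocols. The deposited table gives 1 signal value per gene and library, named by the authors as mRNA per cell. STAR and mm10 were named, per the submitters' processing notes, without versions. The sources used here do not give the counting, the gene filter or the conversion of reads to molecules. Values of a gene came in whole steps of 1 read for 100% of genes (largest deviation 2.9e-05 reads, tolerance 0.01), which gave the reads. The worth of a read fell with exon length (r = −0.83 over 9255 genes), so levels are per length.

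The 10 genes were found by Entrez identifier among 9690 genes, of which 9681 matched a symbol. limma 3.58.1 (R 4.3.3; lmFit, contrasts, eBayes with trend) was fitted to log2(value + 0.3) over all 10 libraries and 4 groups, two-sided, with Benjamini-Hochberg adjustment over all genes and a threshold of 0.05. Log2 changes are on that scale and understate changes of low genes. A minimum of 0.3 in at least 2 libraries removed no gene, and all 10 genes passed it. Rescaling used 1 factor per library, the trimmed mean of its log-ratios against the average of all libraries (0.3 trimmed by ratio and 0.05 by level, factors 0.624 to 1.761), and the same fit was made. Comparisons that use the same group of libraries are not independent. The p-values per cell treat an error shared by all genes of a library as separate for each gene. The fit was also run on simulated data with planted changes, which scored only the calls and signs of those changes and not false calls. Python 3.11.15, pandas 2.3.3 and matplotlib 3.10.9 were used.

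The 10 genes, the other gene lists and the rules were chosen with earlier results of these data known. All 10 genes are named in every comparison. From each other list, up to 4 genes per comparison with the smallest p on either scale among those called were eligible. Nfkb2, Relb and Kdm1a were named in addition, and the 3 genes with the most similar pattern were computed for each of the 10. Alternatives were pseudocounts of 0.1 and 1, median-ratio scaling, no filter or a minimum of 3, limma voom on recovered reads, the replicate number as a block, and leaving out each library.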

Additional observations from a re-analysis of the deposited data

How the results depend on the processing

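The choice of scale decided most directions between MZB and FoB. Per cell, 4 genes were called in wild type and 9 in knockout cells, all higher in MZB, and under trimmed-mean scaling, median-ratio scaling or limma voom 7 (1 higher, 6 lower) and 9 (3 higher, 6 lower) were called. In wild type the log2 differences that turned negative were, by trimmed mean, median ratio and voom, −0.47, −0.47 and −0.48 for Nfkb1, −0.03, −0.03 and −0.04 for Rel, −0.76, −0.76 and −0.79 for Rela, −0.65, −0.65 and −0.72 for Nfkbib, and −0.58, −0.57 and −0.64 for Tnfaip3. In knockout cells they were −0.26, −0.25 and −0.26 for Nfkb1, −0.29, −0.29 and −0.30 for Rel, −0.48, −0.48 and −0.49 for Rela, −0.86, −0.85 and −0.87 for Nfkbia, −0.30, −0.29 and −0.32 for Nfkbib, −0.57, −0.57 and −0.59 for Bcl3, and −0.25, −0.25 and −0.27 for Tnfaip3. In knockout against wild-type MZB, Rel turned to −0.03 under all 3 and Nfkbiz to −0.18, −0.19 and −0.20. In FoB, Tnfaip3 turned to 0.03, 0.03 and 0.02, and the difference of knockout effects for Rel to −0.26 under all 3. These turns follow from the alternatives' construction, which removes the library level.

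Whether the replicate numbers pair the libraries was not settled. Deviations of same-numbered libraries from their group means, on rescaled values, correlated at −0.19 to 0.187. Groups of 2 or 3 libraries are too small for these correlations to decide it. Between knockout and wild-type MZB the correlations were 0.187 and 0.149 for same-numbered libraries, and −0.187 to 0.01 for the others. With the number as a block, 0 of the 10 genes were called in knockout against wild-type MZB, per cell and rescaled. The log2 changes with the block were 0.66 for Tnfaip3, 0.62 for Nfkbia and 0.56 for Bcl3 per cell (limma, adjusted p = 0.0595, 0.117 and 0.134), and 0.36 for Tnfaip3 and 0.31 for Nfkbia rescaled (limma, adjusted p = 0.104 and 0.0621). In rescaled knockout MZB against FoB the block left 9 calls but ended that of Tnfaip3, at −0.24, and gave one for Nfkbib, at −0.32 (limma, adjusted p = 0.0939 and 0.0493). It changed no other call among the 10 genes.

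Leaving out each library in turn, the counts of called genes ran from 0 to 6 per cell and 0 to 2 rescaled for knockout against wild-type MZB, 4 to 5 and 6 to 8 for wild-type MZB against FoB, 7 to 10 and 5 to 9 for the knockout cells, and 0 to 1 and 0 to 0 for the difference of knockout effects. In FoB the count was 0 throughout. Changes that crossed 0 per cell ran in FoB knockout from −0.32 to 0.07 for Nfkb1, −0.11 to 0.21 for Nfkbia, −0.29 to 0.04 for Nfkbid, −0.21 to 0.03 for Bcl3 and −0.21 to 0.16 for Tnfaip3. In wild-type MZB against FoB they ran from −0.04 to 0.23 for Rela, −0.07 to 0.38 for Nfkbib and −0.11 to 0.12 for Bcl3, and in the difference of effects from −0.03 to 0.27 for Rel. Rescaled, they ran from −0.06 to 0.09 for Nfkbid in knockout MZB, −0.11 to 0.03 for Bcl3 and −0.01 to 0.06 for Tnfaip3 in FoB, −0.06 to 0.01 for Rel and −0.05 to 0.07 for Nfkbie in wild-type MZB against FoB, and −0.03 to 0.15 for Nfkbiz in the difference of effects. None of these was a called change. Where a group was left with 1 library, that library was assumed to vary like the other groups. Pseudocounts of 0.1 and 1, no filter and a minimum of 3 left all 5 per-cell counts of called genes as reported. Over all genes, 1288 were called higher and 68 lower in knockout MZB per cell, against 886 and 50 with a pseudocount of 0.1, 1988 and 90 with 1, 790 and 38 with the minimum of 3, 477 and 51 with the block, 568 and 526 with voom, 326 and 184 with trimmed-mean scaling and 323 and 177 with median-ratio scaling. Leaving out 1 library gave 240 to 2725 higher and 32 to 75 lower per cell, and 47 to 453 higher and 14 to 494 lower with trimmed-mean scaling. Depth was lowest for Nfkbib, with 121 to 240 reads per library, and the number of libraries, 2 or 3 per group, limited all comparisons.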
